A study of Rattus norvegicus with 18 samples.

Results

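The set described here holds 43 rat genes of the interferon response and of antigen presentation, given by a list of gene names. It covers 2 receptor chains, 8 transcription factors, 5 RNA sensors or their regulators, the 2 genes of the ISG15 system, 9 antiviral effectors, 6 other interferon-induced genes, 2 chemokines, 5 proteasome genes and 4 genes of peptide transport and class I assembly. A probe set was found for 42 of the 43 genes among 14217 genes with a probe set of a single symbol (31042 probe sets in all). No probe set was matched to Ddx58. The filter on low signal left 36 members for the tests, while Ifit3, Mx2, Irf8, Ifih1, Dhx58 and Rsad2 were too dim and are given as levels.

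Gene expression was measured on 18 arrays in laser-microdissected ovarian follicles of Crl:CD(SD) rats, with 3 samples in each of 6 groups. The control PeF group was taken from untreated rats before ovulation, at 22:00 of proestrus. The control PoF group came from untreated rats after ovulation, at 10:00 of estrus. Indomethacin (IM), a cyclooxygenase inhibitor that lowers prostaglandin synthesis, was given by mouth at 4 mg/kg at 16:00 of proestrus, and follicles were taken at 22:00 (IM PeF) and, unruptured, at 10:00 of estrus (IM UF). RU486 (RU), which blocks progesterone and glucocorticoid receptors, was given by mouth at 100 mg/kg at 10:00 of proestrus, and follicles were taken at the same times (RU PeF and RU UF). The description of the study counts 3 animals for a group at each time, and 15 follicles were cut from sections 8 micrometres thick, but the labels tie no sample to an animal, so p-values reflect how far the samples of a group spread, which may be technical. The labels name neither the age of the rats nor a vehicle for controls. Since only untreated follicles had ruptured by 10:00, a drug and a missing rupture cannot be told apart at that time.

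Between 25 and 41 of the 42 members stood above background, taken as the brightest of 27 unspiked control probe sets of the same array. The lowest count belonged to control PeF 3, the dimmest array, with a median deposited signal of 4.4 against up to 27.4 on the others. On it Ifi35, Psmb9, Tap1 and Tap2 stood at 2.07 on the normalized log2 scale, the lowest level of that array, and Tapbp was low too. The called differences of these genes in the control interval are therefore given with and without control PeF 3. RNA quality was read as the log2 difference between GAPDH control probe sets of the 3' and 5' ends, larger with degraded RNA. It was 4.11, 2.96 and 4.10 in control PeF, 2.31, 2.07 and 2.29 in control PoF and 3.27, 2.86 and 3.09 in RU UF. Control PoF thus overlapped neither of these groups. The other groups lay at 2.59 to 3.63 (IM PeF), 2.19 to 3.86 (IM UF) and 2.66 to 2.95 (RU PeF). The part of RNA quality in the comparisons was not tested. Granulosa markers (6 to 7 of 7 above background on every array) and theca markers (3 to 4 of 4) were present, as the label of a follicle implies.

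Interferons bind cell surface receptors and, through Janus kinases, activate STAT proteins. Type I interferon leads to a complex with Stat2 and Irf9 that binds the interferon-stimulated response element (ISRE), and interferon gamma acts through the gamma-activated site (GAS). The induced genes include antiviral proteins and the machinery of antigen presentation, in which the immunoproteasome cuts peptides, Tap1 and Tap2 carry them into the endoplasmic reticulum, and tapasin (Tapbp) helps load them onto class I molecules held by beta-2 microglobulin. In the ovary, ovulation is known to share features with an inflammatory response, and several of these genes are also expressed without interferon.

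Promoter sequences show how the members resemble each other apart from their levels. Promoters of 300 bases (250 before and 50 after the annotated start) from RefSeq, build GRCr8, were matched for 34 of the 43 members. They were searched on both strands for the ISRE letters, GAAA and again GAAA after any 2 bases, of which 19 of 34 members (55.9%) and 1312 of all 33469 promoters (3.92%) held a match. The GAS letters, TTC and then GAA after any 3 bases, which read the same on both strands, were present in 7 of 34 members (20.6%) and 2970 of all promoters (8.87%). A match is a description of letters and not a measured site, and many members were named as interferon targets in the first place.

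The windows printed are the 180 bases just before the start, in the direction of the gene, for members chosen from those called in at least 1 comparison, with and without a match. Psme1 (chr15:33038791-33038970, plus strand), Psme2 (chr15:33052752-33052931, minus strand) and Irf9 (chr15:33065656-33065835, plus strand) are close neighbours on chromosome 15, with 26.9 kb between the starts of Psme1 and Irf9. Psmb10 lies at chr19:50743293-50743472 (minus strand). The MHC region of chromosome 20 holds Tap2 at chr20:4652297-4652476 and Tapbp at chr20:4967878-4968057, both on the minus strand. Stat2 (chr7:1286910-1287089, plus strand), Trim25 (chr10:74309844-74310023, plus strand) and Ifi35 (chr10:86881090-86881269, plus strand) were higher in all 3 intervals described further on. Bst2 (chr16:18254968-18255147, minus strand), Ifi27 (chr6:128355132-128355311, plus strand) and Parp14 (chr11:78407954-78408133, plus strand) stand for the induced genes. Capitals mark matches to the ISRE letters, except in Irf9, where they mark the GAS letters. In Parp14 the first run of capitals is a GAS match and the second an ISRE match, and in Bst2 a GAS match and a pair of ISRE matches overlap in 1 run. Tapbp likewise holds a pair of overlapping ISRE matches, and Psme1, Stat2, Trim25 and Ifi35 hold no match in this window.
Psme1: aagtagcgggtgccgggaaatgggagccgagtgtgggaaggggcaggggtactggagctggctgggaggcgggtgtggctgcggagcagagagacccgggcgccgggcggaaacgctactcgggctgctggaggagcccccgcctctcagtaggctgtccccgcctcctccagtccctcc
Psme2: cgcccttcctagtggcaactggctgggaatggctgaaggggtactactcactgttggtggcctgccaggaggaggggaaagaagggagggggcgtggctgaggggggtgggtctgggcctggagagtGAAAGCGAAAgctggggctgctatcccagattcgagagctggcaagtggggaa
Irf9: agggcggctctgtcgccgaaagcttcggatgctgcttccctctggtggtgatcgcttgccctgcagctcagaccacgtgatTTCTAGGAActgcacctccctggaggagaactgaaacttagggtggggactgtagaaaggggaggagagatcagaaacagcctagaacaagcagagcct
Stat2: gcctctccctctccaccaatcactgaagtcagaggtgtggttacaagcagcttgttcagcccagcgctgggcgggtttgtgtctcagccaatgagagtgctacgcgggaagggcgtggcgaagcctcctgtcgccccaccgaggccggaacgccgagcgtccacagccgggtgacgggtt
Trim25: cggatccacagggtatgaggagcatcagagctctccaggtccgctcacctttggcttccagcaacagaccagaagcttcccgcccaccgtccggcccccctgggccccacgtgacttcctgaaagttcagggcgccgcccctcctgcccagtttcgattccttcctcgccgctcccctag
Ifi35: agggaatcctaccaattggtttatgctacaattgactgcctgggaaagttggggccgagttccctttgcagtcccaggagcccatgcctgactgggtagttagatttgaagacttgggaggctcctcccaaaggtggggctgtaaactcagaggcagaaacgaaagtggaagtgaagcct
Psmb10: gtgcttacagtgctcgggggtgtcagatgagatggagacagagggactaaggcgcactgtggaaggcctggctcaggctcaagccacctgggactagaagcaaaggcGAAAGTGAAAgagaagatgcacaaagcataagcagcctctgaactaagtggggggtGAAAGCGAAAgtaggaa
Tap2: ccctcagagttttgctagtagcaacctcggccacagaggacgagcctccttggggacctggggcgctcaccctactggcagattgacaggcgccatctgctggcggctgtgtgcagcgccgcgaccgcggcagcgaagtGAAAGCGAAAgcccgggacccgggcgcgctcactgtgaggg
Tapbp: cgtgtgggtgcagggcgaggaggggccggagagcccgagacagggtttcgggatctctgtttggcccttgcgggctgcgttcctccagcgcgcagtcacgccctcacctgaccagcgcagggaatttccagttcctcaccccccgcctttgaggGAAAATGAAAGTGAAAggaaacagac
Bst2: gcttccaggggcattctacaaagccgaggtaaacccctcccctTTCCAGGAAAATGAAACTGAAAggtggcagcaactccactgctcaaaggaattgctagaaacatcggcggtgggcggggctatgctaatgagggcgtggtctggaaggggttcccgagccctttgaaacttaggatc
Ifi27: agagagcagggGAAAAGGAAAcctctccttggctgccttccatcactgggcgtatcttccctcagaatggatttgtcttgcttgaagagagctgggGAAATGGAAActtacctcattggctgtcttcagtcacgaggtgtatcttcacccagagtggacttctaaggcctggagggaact
Parp14: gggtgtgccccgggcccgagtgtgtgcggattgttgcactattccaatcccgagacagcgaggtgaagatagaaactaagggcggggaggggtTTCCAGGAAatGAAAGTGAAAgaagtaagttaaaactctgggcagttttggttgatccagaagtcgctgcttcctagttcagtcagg

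The ISRE match of Psme2 began 53 bases before the start, those of Psmb10 at 73 and 17 bases and that of Tap2 at 41. In Irf9 the GAS match began 99 bases before the start. Members with and without the ISRE letters were both among those that rose: in control PoF against control PeF 7 of 16 tested members with a match and 7 of 14 without were higher, and in RU UF against control PoF 2 of 16 and 2 of 14. Over the IM interval 8 of 16 with a match and 4 of 14 without were higher (median log2 differences 0.72 and 0.18), and over the RU interval 8 of 16 and 5 of 14 (1.15 and 0.56). Of all probe sets, 21.0%, 4.22%, 16.3% and 19.0% were higher in these comparisons, in the order given. No test was made of the shares of members.

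**Figure D1:**
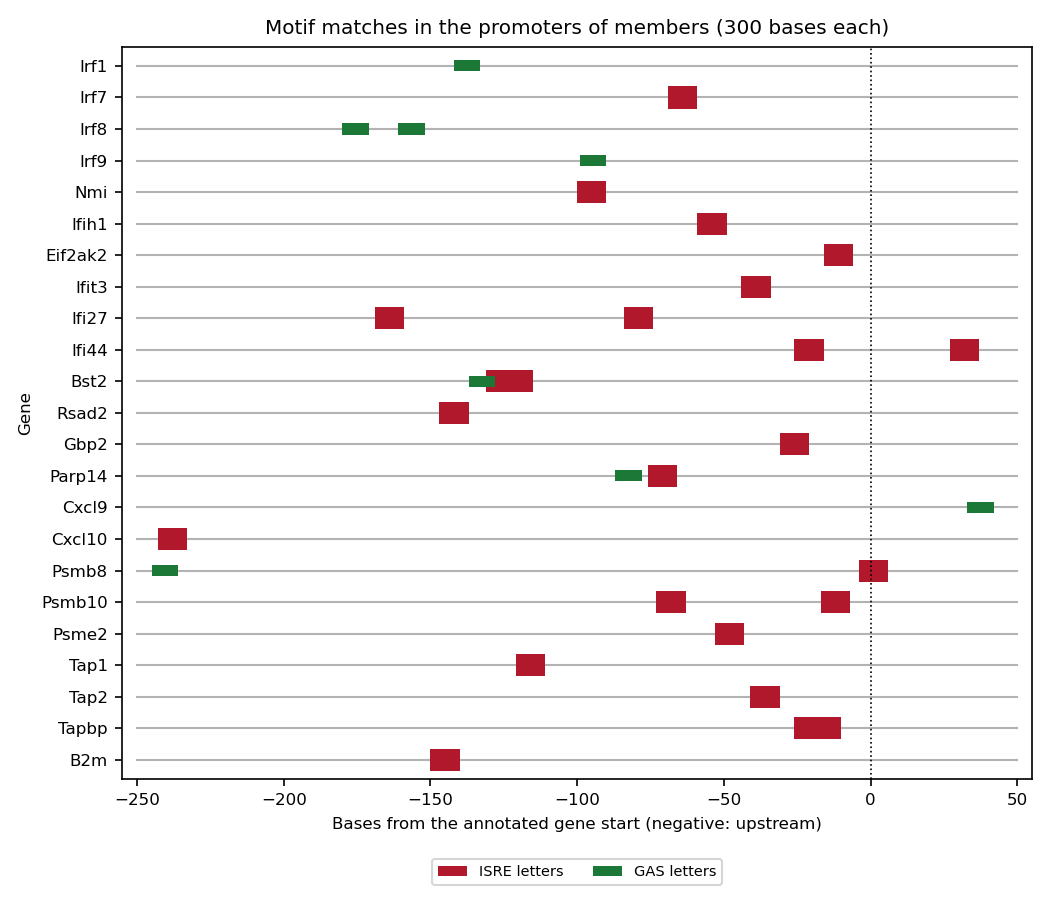
Positions of matches to the ISRE letters (red) and GAS letters (green) in the 300-base promoters of the members with at least 1 match, in bases from the annotated start (dotted line, negative values upstream). Bars have the length of the motif, and overlapping bars are overlapping matches, as in Bst2 and Tapbp.

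Between 22:00 of proestrus and 10:00 of estrus the set moved mostly upwards in untreated rats. Of the 36 members tested, 16 were higher and 3 lower in control PoF than in control PeF (limma, adjusted p at or under 0.05), against 21.0% of all 18155 probe sets higher and 18.5% lower. The median log2 difference of the members was 0.74, beside 0.04 over all probe sets. Members higher by the most were Ifi35, Rtp4, Tap2, Psmb9 and Trim25, and those lower were Mx1, Irf9 and Irf3. The values of Ifi35, Tap2 and Psmb9 were smaller without control PeF 3, and Psmb9 was then not called. In bulk samples a lower or higher level can come from a changed share of cells or from changed RNA per cell, which cannot be told apart. With the deposited signals, in which the median of all probe sets itself stood at 1.28, the split of the members was 21 higher and none lower, and with median scaling (shift 0.26) it was 18 and 1.

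The same interval was measured on separate arrays under each drug. In IM UF against IM PeF, 13 members were higher and 2 lower (16.3% and 17.0% of all probe sets), with a median of 0.62 beside -0.03 over all. In RU UF against RU PeF, 17 were higher and 2 lower (19.0% and 19.9% of all), with a median of 1.03 beside -0.02. Stat2, Trim25, Ifi35, Ifi44, Parp14, Psmb8, Psme1 and Psme2 were higher in all 3 intervals, 8 of 36 members against 10.1% of all probe sets. A further 7 members (Adar, Ifi27, Bst2, Parp9, Rtp4, Psmb10 and Tapbp) were higher in 2 of the 3. The share of all probe sets higher in 2 of the 3 was not counted, so these 7 have no background beside them.

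Against the control of the same time few members passed the test. At 22:00 none of 36 members was called by limma between IM PeF and control PeF (0% of all probe sets called; 6 members and 2074 probe sets had an unadjusted p under 0.05). In RU PeF against control PeF none of 36 members was called either, where 3.40% of all probe sets were higher and 4.03% lower. There 7 members and 4328 of all 18155 probe sets had an unadjusted p under 0.05. With arrays weighted by quality, 4 members were called in IM PeF and 9 in RU PeF. The same setting called 2348 and 3486 of all 18155 probe sets.

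At 10:00 of estrus the drugs gave different counts. In IM UF against control PoF 0 of 36 members were called by limma (0.0330% of all probe sets). An unadjusted p under 0.05 was found for 3 members and 1265 of all 18155 probe sets. RU UF differed from control PoF in 5 members, Ifi27, Usp18, Irf9, Psme1 and Psme2, each of them higher, where 4.22% of all probe sets were higher and 4.47% lower. Without RU UF 3 or without control PoF 1 the count was 3. Both comparisons use the same 3 control PoF arrays.

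Direct comparison of the drugs named 4 members. In RU PeF, Bst2 and Psmb10 were lower than in IM PeF (3.25% of all probe sets lower, 1.98% higher). In RU UF, Usp18 and Oasl were higher than in IM UF (3.49% of all higher, 3.45% lower). The effect of RU at 10:00 exceeded that at 22:00 for Usp18 and Irf9 (2.18% of all higher, 1.84% lower). The corresponding difference for IM was called for 0 members (0% of all probe sets). For it 5 members and 1641 of all 18155 probe sets had an unadjusted p under 0.05.

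**Figure D2:**
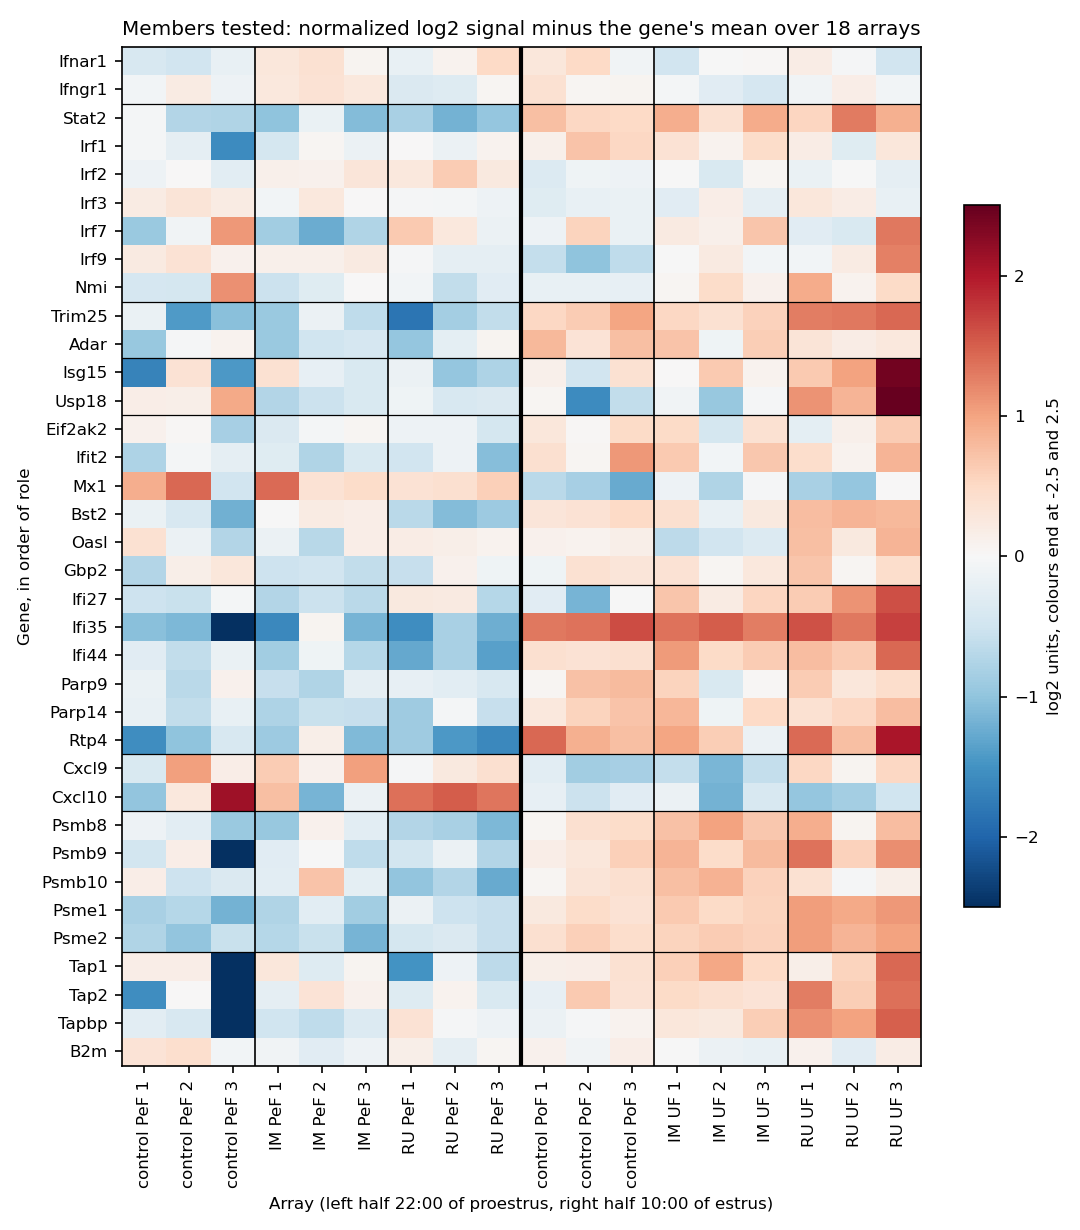
Normalized log2 signal of the 36 tested members on the 18 arrays, each gene minus its own mean over all arrays, with arrays of 22:00 left of the thick line and arrays of 10:00 right of it. Rows follow the roles of the genes, and colours end at -2.5 and 2.5. The blocks of proteasome and other induced genes are mostly below their means on the left and above on the right, control PeF 3 stands out low for Ifi35, Psmb9, Tap1, Tap2 and Tapbp, and RU UF 3 stands out high for Isg15 and Usp18.

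Among the receptors, Ifnar1 (a chain of the type I interferon receptor) was not called in any comparison, with group means of log2 signal from 4.50 ± 0.15 in control PeF to 5.09 ± 0.29 in control PoF (SD, n = 3). Ifngr1, the ligand-binding chain of the interferon gamma receptor, stood at 8.03, 8.29 and 7.96 in control PeF and 8.47, 8.13 and 8.15 in control PoF. Under IM it was 8.36, 8.45 and 8.35 at 22:00 and 8.05, 7.80 and 7.68 at 10:00, so that no array of the later group reached the earlier one. Under RU it was 7.74, 7.76 and 8.14 and later 8.000, 8.25 and 8.02, which overlap. It fell over the IM interval by 0.54 on the log2 scale (SE 0.15, 1.46-fold, adjusted p = 0.0112), a call that ended without IM UF 3 (-0.46, 0.0567) and with median scaling (0.204).

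Stat2, the partner of Irf9 in the type I complex, rose in every interval. Its log2 signal was 6.32, 5.63 and 5.62 in control PeF, 5.36, 6.21 and 5.28 in IM PeF and 5.57, 5.19 and 5.41 in RU PeF. The later groups stood at 7.11, 6.88 and 6.87 in control PoF, 7.28, 6.75 and 7.30 in IM UF and 6.90, 7.66 and 7.26 in RU UF. Every array of 10:00 lay above every array of 22:00. The rise was 1.10 ± 0.27 (SE) in controls (adjusted p = 0.00414), 1.49 ± 0.27 under IM (0.000413) and 1.89 ± 0.27 under RU (3.32e-05). Stat2 was not called between treated and control follicles of the same time, with 95% intervals at 10:00 of -0.42 to 0.73 for IM and -0.26 to 0.90 for RU. A second probe set of Stat2 was called under IM (0.66) and RU (1.18) and stood at 0.38 in controls (adjusted p = 0.156).

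Irf9, which gives the type I complex its DNA binding, went the other way in untreated rats. It stood at 6.72, 6.86 and 6.60 in control PeF, 6.62, 6.62 and 6.72 in IM PeF and 6.46, 6.26 and 6.28 in RU PeF. At the later time control PoF had 5.90, 5.49 and 5.85, IM UF 6.47, 6.72 and 6.42 and RU UF 6.42, 6.70 and 7.75. The 3 control PoF arrays were the lowest of all 18, and RU UF 3 was the highest. In controls Irf9 fell by 0.98 (SE 0.25, 1.97-fold, adjusted p = 0.00551), although with the deposited signals, where the median probe set rose by 1.28, its value was 0.42. In RU UF it was higher than in control PoF by 1.21 ± 0.25 (2.32-fold, adjusted p = 0.00568), and by 0.82 without RU UF 3 (0.024). The IM UF value against the same controls was 0.79 ± 0.25 (0.414), and RU UF against IM UF gave 0.42 with a 95% interval of -0.11 to 0.96.

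The effect of RU on Irf9 was larger at 10:00 than at 22:00 by 1.61 ± 0.36 (SE; adjusted p = 0.0176). That call ended without control PoF 2 (1.48, 0.0565) and with median scaling (1.18, 0.146). The other probe set of Irf9 gave 0.34 in the control interval and 0.50 in RU UF against control PoF, neither called. With the mean of both probe sets the fall in controls was -0.32 (adjusted p = 0.45) and the RU UF value 0.86 (0.115).

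Irf1, a transcription factor itself induced through GAS sites, stood at 6.95, 6.77 and 5.42 in control PeF and 7.12, 7.71 and 7.51 in control PoF. Under IM it read 6.56, 7.04 and 6.85 earlier and 7.35, 7.08 and 7.45 later. Under RU it read 7.01, 6.85 and 7.08 earlier and 7.19, 6.69 and 7.28 later. It was higher in control PoF by 1.07 ± 0.30 (adjusted p = 0.00927), and by 0.59 without the dim control PeF 3, still called. The RU groups overlapped between the times and the IM groups lay just apart, with 0.48 under IM and 0.07 under RU, neither called. The treated interval minus the control interval was -0.59 for IM (adjusted p = 0.665) and -0.997 for RU (0.21), so a difference between the intervals was not called.

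The other transcription factors moved little or in 1 interval. Irf3, which is activated by sensor signalling, was lower in control PoF (group mean 7.95 ± 0.08, SD) than in control PeF (8.41 ± 0.06) by 0.46 (adjusted p = 0.0228), but it was higher by 1.02 with the deposited signals and not called with median scaling. Irf7, an interferon-induced amplifier of interferon production, rose under IM by 1.31 (0.0323), a call that ended when any of 5 of the 6 arrays was left out (adjusted p 0.0545 to 0.113). Irf2, which binds the same sites as Irf1, fell under RU by 0.51 (0.0156), and not without RU PeF 2 (0.094) or RU UF 3 (0.0573). Nmi, a binding partner of STAT proteins, was called in no comparison. Irf8 was too dim for the tests, and above background on all 3 arrays of control PoF, RU PeF and RU UF.

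Trim25, a ubiquitin ligase that activates the RNA sensor RIG-I, rose in every interval. At 22:00 it read 9.03, 7.78 and 8.16 in control PeF, 8.28, 9.04 and 8.56 in IM PeF and 7.38, 8.35 and 8.59 in RU PeF. By 10:00 it read 9.72, 9.84 and 10.18 in control PoF, 9.72, 9.57 and 9.77 in IM UF and 10.48, 10.51 and 10.63 in RU UF. The RU UF arrays were the highest of all 18 and no array of 22:00 reached those of 10:00. The rise was 1.59 ± 0.29 in controls (3.004-fold, adjusted p = 0.000381), 1.06 ± 0.29 under IM (2.08-fold, 0.00983) and 2.43 ± 0.29 under RU (5.39-fold, 4.71e-06). RU UF against control PoF gave 0.63 (95% interval 0.01 to 1.24), which was not called (0.23). The IM call ended without IM PeF 1 (0.0557).

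Adar, an enzyme that edits adenosines in double-stranded RNA, rose in controls by 0.93 ± 0.31 (0.0251) and under IM by 1.03 ± 0.31 (0.0175), with 0.63 under RU (0.122). Its 2 other tested probe sets gave -0.01 and -0.41 under IM, and the mean of its probe sets was not called there (0.20). Left out singly, control PeF 1, control PoF 1 and control PoF 3 ended the control call (adjusted p up to 0.124). The sensor genes Ifih1 (MDA5) and Dhx58 (LGP2) were dim: Ifih1 was above background on 10 of 18 arrays and Dhx58 on 9 of 18.

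Both genes of the ISG15 system rose under RU. Isg15 is a ubiquitin-like protein, and Usp18 removes it from its targets and limits signalling by the type I receptor. The log2 signal of Isg15 was 3.16, 5.20 and 3.39 in control PeF, 5.21, 4.63 and 4.45 in IM PeF and 4.69, 3.86 and 4.05 in RU PeF. Later it was 4.96, 4.36 and 5.22 in control PoF, 4.85, 5.49 and 4.92 in IM UF and 5.49, 5.85 and 7.24 in RU UF. RU UF 3 was the highest array by more than 1 log2 unit, and RU UF 1 stood barely above IM UF 2, the highest array of the other drug. Isg15 rose from RU PeF to RU UF by 1.99 ± 0.50 (3.97-fold, adjusted p = 0.00441), while RU UF against control PoF gave 1.34 ± 0.50 and was not called (0.118).

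Usp18 showed the largest excess in RU UF over control PoF among the members. It read 4.49, 4.46 and 5.27 in control PeF, 3.60, 3.79 and 3.94 in IM PeF and 4.21, 3.92 and 3.95 in RU PeF. At estrus it read 4.38, 2.76 and 3.71 in control PoF, 4.24, 3.38 and 4.29 in IM UF and 5.45, 5.17 and 6.82 in RU UF. No control PoF or IM UF array reached RU UF, control PoF 2 was the lowest array of all and RU UF 3 the highest. Usp18 was higher in RU UF than in control PoF by 2.20 ± 0.46 (4.59-fold, adjusted p = 0.00528), and by 1.70 without RU UF 3 (0.0395). It was higher than in IM UF by 1.85 ± 0.46 (3.59-fold, 0.0194), not called without IM UF 2 (0.099) or RU UF 3 (0.121).

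From RU PeF to RU UF, Usp18 rose by 1.79 ± 0.46 (adjusted p = 0.00473), where the control interval gave -1.13 (0.0588) and the IM interval 0.19. The effect of RU at 10:00 exceeded that at 22:00 by 2.91 ± 0.65 (0.0168). Without control PoF 2 this difference was 2.47 and not called (0.0537). On that array the deposited signal of Usp18, 5.21, was below the background of 6.86. Theca markers moved alongside in RU UF: 3 of 4 were higher than in control PoF, among them Star (1.95) and Cyp17a1 (2.34), and their summed normalized signal was 11161 to 13355 against 2503 to 3521. Of 7 tested granulosa markers 2 were higher there, Cyp19a1 (3.42) and Inha (0.68), beside 4.22% of all probe sets higher. Of 8 tested leukocyte markers 0 were called there by limma, with sums of 134 to 184 in RU UF and 156 to 261 in control PoF. The part of the theca and granulosa markers in this result, and in those of Irf9, Ifi27, Psme1 and Psme2 in RU UF, was not tested.

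**Figure D3:**
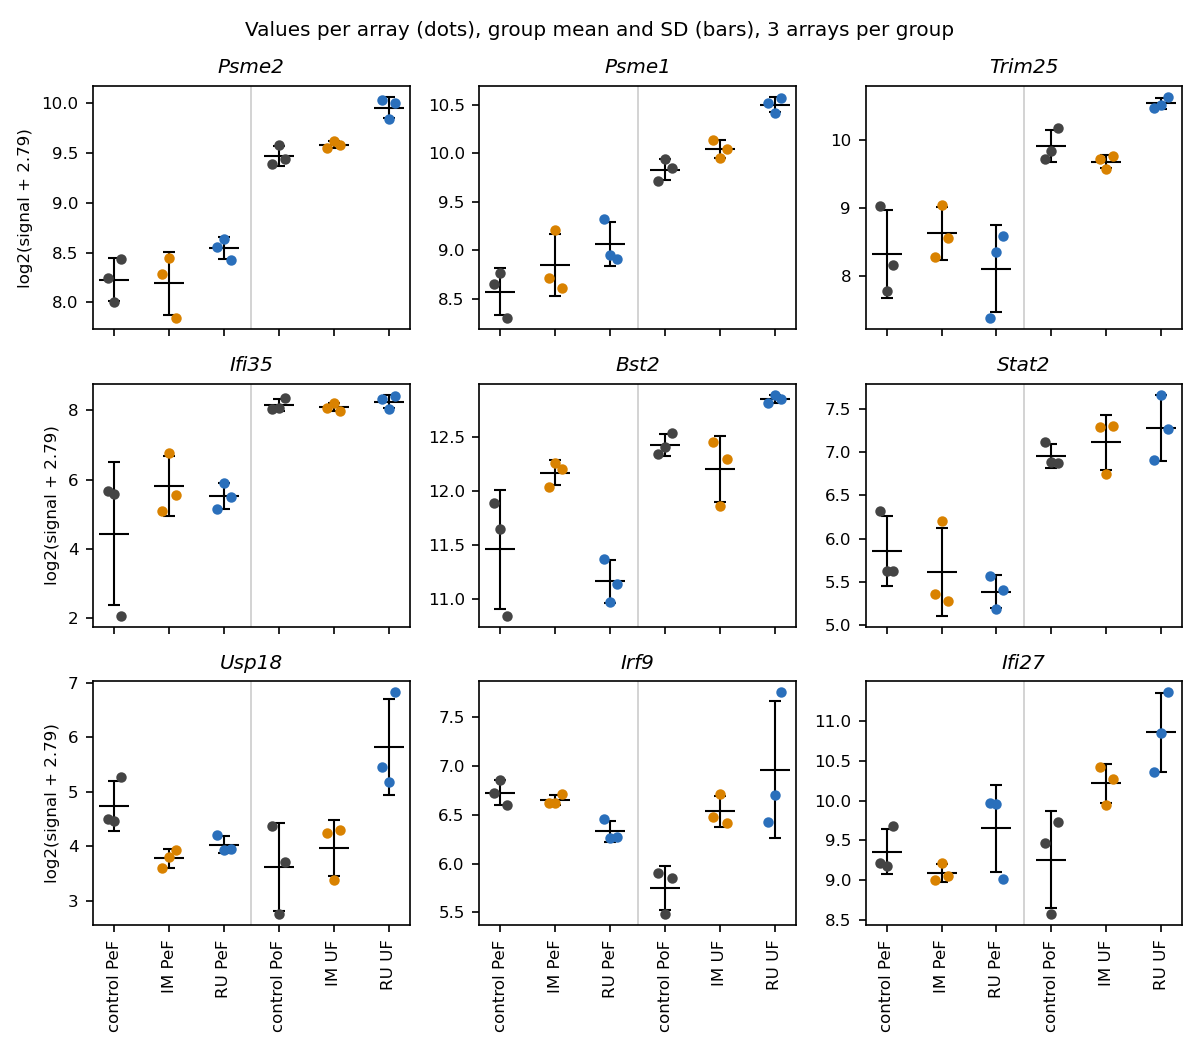
Normalized log2 signal of 9 members on each array (dots), with the mean and SD of each group of 3 arrays (bars), and groups of 22:00 left of the grey line. Psme2, Psme1, Trim25, Ifi35 and Stat2 lie higher at 10:00 in all groups, whereas Usp18, Irf9 and Ifi27 are highest in RU UF and not higher in control PoF than in control PeF on average.

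Bst2 (tetherin), which holds budding virus at the cell surface, was among the members with a split between the drugs. At 22:00 it stood at 11.89, 11.65 and 10.84 in control PeF, 12.04, 12.26 and 12.21 in IM PeF and 11.37, 10.97 and 11.14 in RU PeF. At 10:00 it stood at 12.34, 12.41 and 12.54 in control PoF, 12.45, 11.86 and 12.30 in IM UF and 12.82, 12.89 and 12.86 in RU UF. IM PeF already overlapped IM UF, and RU PeF lay wholly below IM PeF. Bst2 rose by 0.97 ± 0.20 in controls (adjusted p = 0.000871) and by 1.70 ± 0.20 under RU (3.24-fold, 3.31e-06), with 0.04 ± 0.20 under IM (95% interval -0.38 to 0.45). RU PeF was lower than IM PeF by 1.01 (SE 0.20, 2.01-fold, 0.00439), a call that ended with median scaling (0.0973). Bst2 also marks plasmacytoid dendritic cells: Siglech, their defining marker, was not analysed here, Irf8 was dim and Tcf4 was not called in these comparisons.

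Other antiviral effectors were dim or called in at most 1 comparison. Mx1, a dynamin-like GTPase against RNA viruses, stood at 4.76 ± 0.99 (SD) in control PeF and 3.22 ± 0.30 in control PoF. In each of these groups it was above background on 2 of 3 arrays. It fell by 1.54 (SE 0.45, adjusted p = 0.0119), against the direction of most of the set. The fall was 2.11 without control PeF 3, and not called without control PeF 2 (0.0684) or control PoF 3 (0.0524). Under IM and RU the values were -1.05 and -1.04, neither called. Ifit2, which binds RNA at its end, rose under RU by 1.01 ± 0.35 (0.0267), and the call was lost in 4 of 6 fits that left out 1 array of the comparison. Its values in controls (0.86, adjusted p = 0.0571) and under IM (0.90, 0.052) were of similar size and not called.

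Gbp2, a guanylate-binding protein, rose under IM by 0.77 ± 0.25 (0.0258), also lost in 4 of 6 such fits. Its values of 0.29 in controls (0.385) and 0.58 under RU (0.0784) were not called. Oasl, a relative of the oligoadenylate synthetases, stood at 4.23 ± 0.16 (SD) in IM UF and 5.34 ± 0.33 in RU UF, a difference of 1.11 ± 0.31 (0.039) that was called in 1 of 6 such fits. Eif2ak2 (PKR), the kinase that stops translation on double-stranded RNA, was not called in any comparison. Of the dim effectors, Mx2 was above background on all arrays of control PoF and RU UF and on none of control PeF and IM PeF. Rsad2 (viperin) was above background on 4 of 18 arrays and Ifit3 on 4 of 18.

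Of the other induced genes, 5 of 6 were higher in controls, 4 of 6 under IM and 6 of 6 under RU, and none was called lower. The shares of all probe sets higher were 21.0%, 16.3% and 19.0%. Ifi35, which pairs with Nmi, read 5.68, 5.60 and 2.07 in control PeF, 5.10, 6.77 and 5.55 in IM PeF and 5.16, 5.91 and 5.49 in RU PeF. In control PoF it read 8.04, 8.08 and 8.35, in IM UF 8.08, 8.22 and 7.99 and in RU UF 8.31, 8.03 and 8.41. The 9 arrays of 10:00 lay within 0.42 log2 units of each other and above all 9 of 22:00. The control rise of 3.71 ± 0.64 (13.1-fold, adjusted p = 0.000209) became 2.52 without control PeF 3 (1.90e-05) and 4.33 without control PeF 1. Under IM the rise was 2.29 ± 0.64 (0.0103, lost without IM PeF 1 at 0.056) and under RU 2.73 ± 0.64 (6.65-fold, 0.0025).

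Ifi44 read 5.25, 4.93 and 5.37 in control PeF, 4.67, 5.43 and 4.83 in IM PeF and 4.26, 4.74 and 4.19 in RU PeF. It read 5.93, 5.90 and 5.94 in control PoF, 6.61, 6.03 and 6.18 in IM UF and 6.31, 6.18 and 6.98 in RU UF. All arrays of 10:00 exceeded all arrays of 22:00. Its rise was 0.74 ± 0.27 in controls (0.0395), 1.30 ± 0.27 under IM (0.00137) and 2.10 ± 0.27 under RU (4.27-fold, 1.11e-05). The control call was lost in 5 of 6 fits without 1 array (adjusted p 0.0534 to 0.118).

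Rtp4, a chaperone-like protein induced by interferon, read 3.34, 3.89 and 4.49 in control PeF, 3.98, 5.03 and 3.78 in IM PeF and 3.995, 3.44 and 3.28 in RU PeF. At estrus it read 6.32, 5.78 and 5.63 in control PoF, 5.87, 5.51 and 4.74 in IM UF and 6.31, 5.64 and 6.92 in RU UF. Only the IM groups overlapped between the times. In control PeF, Rtp4 was above background on 1 of 3 arrays. Rtp4 rose by 2.01 ± 0.42 in controls (4.02-fold, 0.00118) and 2.72 ± 0.42 under RU (6.57-fold, 7.04e-05), and the IM value of 1.11 ± 0.42 just missed the threshold (0.0521).

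Parp14, an ADP-ribosyltransferase, read 6.53, 6.10 and 6.52 in control PeF, 5.93, 6.15 and 6.13 in IM PeF and 5.83, 6.66 and 6.13 in RU PeF. It read 6.98, 7.26 and 7.43 in control PoF, 7.53, 6.61 and 7.21 in IM UF and 7.09, 7.22 and 7.47 in RU UF. Within each treatment every later array lay above every earlier one. The rises were 0.84 ± 0.24 in controls (0.0109), 1.04 ± 0.24 under IM (0.00312) and 1.05 ± 0.24 under RU (0.00232). A second probe set of Parp14 gave 1.73 in controls (0.0102) but 0.16 under RU (0.838), and without control PoF 3 the control call ended (0.0536). Parp9, its neighbour on chromosome 11 and a catalytic partner of Dtx3l, rose in controls by 0.76 ± 0.24 (0.0193) and under RU by 0.74 ± 0.24 (0.0228).

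Ifi27, a small mitochondrial protein strongly induced by type I interferon, passed the test over the interval under both drugs and did not in controls. It read 9.22, 9.18 and 9.68 in control PeF, 9.003, 9.21 and 9.06 in IM PeF and 9.97, 9.96 and 9.02 in RU PeF. It read 9.46, 8.58 and 9.73 in control PoF, 10.43, 9.95 and 10.27 in IM UF and 10.36, 10.85 and 11.36 in RU UF. Every array of both unruptured groups stood above every array of control PoF. From the earlier to the later time the difference was -0.10 ± 0.29 in controls (0.807), 1.13 ± 0.29 under IM (0.00658) and 1.21 ± 0.29 under RU (0.0033). RU UF exceeded control PoF by 1.60 ± 0.29 (3.03-fold, 0.00197), and the IM UF excess of 0.96 ± 0.29 was not called (0.375). RU UF against IM UF gave 0.64 with a 95% interval of 0.03 to 1.26 (0.226), and the difference between the control and treated intervals was not called for either drug (adjusted p = 0.458 for IM and 0.0901 for RU).

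The chemokines Cxcl9 and Cxcl10, ligands of Cxcr3 that draw activated T cells, were not called higher in any interval. Cxcl9 read 4.10, 5.50 and 4.64 in control PeF, 5.13, 4.59 and 5.51 in IM PeF and 4.45, 4.73 and 4.89 in RU PeF. It read 4.23, 3.61 and 3.65 in control PoF, 3.89, 3.34 and 3.88 in IM UF and 5.003, 4.55 and 4.997 in RU UF. It fell under IM by 1.37 (SE 0.37, 2.59-fold, adjusted p = 0.00786), with -0.92 in controls (0.0561) and 0.16 under RU (0.769). RU UF lay above all arrays of control PoF and IM UF, by 1.02 ± 0.37 and 1.14 ± 0.37, neither of which passed the test (0.103 and 0.0722).

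Cxcl10 read 3.52, 4.77 and 6.61 in control PeF, 5.25, 3.34 and 4.36 in IM PeF and 5.89, 6.01 and 5.85 in RU PeF. It read 4.29, 3.96 and 4.23 in control PoF, 4.37, 3.31 and 4.10 in IM UF and 3.55, 3.65 and 4.01 in RU UF. The control PeF arrays spanned 3 log2 units, while the 3 RU PeF arrays agreed closely. Cxcl10 fell under RU by 2.18 (SE 0.58, 4.54-fold, 0.00616). RU PeF against control PeF gave 0.95 ± 0.58 and was not called (0.334). Of the 11 markers of T and NK cells only 2 passed the filter, and their sum over all 11 was 96.3 to 148 in control PeF and 54.4 to 79.9 in control PoF. Under IM the sum was 97.1 to 122 and later 59.7 to 75.7, with Prf1 lower (-2.12), and under RU it was 72.1 to 74.8 and later 48.5 to 73.2. Their part in these values was not tested.

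Of the 5 immunoproteasome genes, 4 were higher in each interval and none lower. Of all probe sets, 21.0% were higher and 18.5% lower in controls, 16.3% and 17.0% under IM and 19.0% and 19.9% under RU. Psme1, Psme2 and Psmb8 were higher each time, joined by Psmb9 in controls and by Psmb10 under IM and RU. Psme1 and Psme2 encode the alpha and beta subunits of the PA28 activator that caps the proteasome. Psme2 read 8.24, 8.002 and 8.44 in control PeF, 8.28, 8.45 and 7.84 in IM PeF and 8.56, 8.64 and 8.42 in RU PeF. It read 9.39, 9.59 and 9.44 in control PoF, 9.55, 9.62 and 9.58 in IM UF and 10.04, 9.84 and 10.003 in RU UF. The times did not overlap in any treatment, and RU UF was the highest group. The rise was 1.25 ± 0.15 in controls (2.37-fold, adjusted p = 4.37e-06), 1.39 ± 0.15 under IM (1.43e-06) and 1.42 ± 0.15 under RU (9.24e-07).

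Psme1 read 8.66, 8.77 and 8.30 in control PeF, 8.72, 9.21 and 8.62 in IM PeF and 9.32, 8.96 and 8.91 in RU PeF. It read 9.72, 9.94 and 9.85 in control PoF, 10.14, 9.96 and 10.04 in IM UF and 10.52, 10.42 and 10.57 in RU UF. Its rises were close to those of Psme2, at 1.26 ± 0.16 in controls (2.39-fold, 8.51e-06), 1.20 ± 0.16 under IM (1.60e-05) and 1.44 ± 0.16 under RU (1.70e-06). For both genes each of these calls held when any array was left out.

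RU UF exceeded control PoF by 0.67 ± 0.16 for Psme1 (1.59-fold, 0.0122) and 0.49 ± 0.15 for Psme2 (1.40-fold, 0.0467). With the deposited signals, where the median probe set stood at -0.67, these values were -0.08 and -0.25, and with median scaling (shift -0.10) neither was called. The call of Psme2 was lost whichever of the 6 arrays was left out (adjusted p 0.0737 to 0.159), and that of Psme1 without control PoF 1 (0.0604) or RU UF 3 (0.0527). IM UF against the same controls gave 0.21 (95% interval -0.12 to 0.54) and 0.11 (-0.20 to 0.42). RU UF against IM UF gave 0.46 for Psme1 (0.0947) and 0.37 for Psme2 (0.148), neither called. Psme1, Psme2 and Irf9 are neighbours, and all 3 were among the 5 members higher in RU UF, whereas Rnf31, which lies between Psme2 and Irf9, gave 0.26 ± 0.18 (0.458). No value is given for Emc9, which lies between Psme1 and Psme2. The other probe set of Irf9 was not called there (0.50, 0.65), and the part of the shared location was not tested.

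The catalytic subunits of the immunoproteasome, Psmb8, Psmb9 and Psmb10, replace those of the constitutive particle. Psmb8 read 7.14, 7.001 and 6.34 in control PeF, 6.33, 7.38 and 7.004 in IM PeF and 6.53, 6.46 and 6.15 in RU PeF. It read 7.31, 7.67 and 7.73 in control PoF, 8.01, 8.28 and 7.94 in IM UF and 8.18, 7.34 and 8.05 in RU UF. It rose by 0.75 ± 0.27 in controls (0.0361), 1.17 ± 0.27 under IM (0.00277) and 1.47 ± 0.27 under RU (0.00033). The control call of Psmb8 ended without control PeF 3, control PoF 2 or control PoF 3 (adjusted p 0.097 to 0.165).

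Psmb10 was lower in RU PeF than in IM PeF. It read 7.37, 6.70 and 6.86 in control PeF, 6.94, 7.94 and 6.97 in IM PeF and 6.23, 6.49 and 5.96 in RU PeF. It read 7.27, 7.53 and 7.62 in control PoF, 7.97, 8.08 and 7.78 in IM UF and 7.60, 7.19 and 7.37 in RU UF. The RU PeF arrays were the lowest of the 18. The difference between the drugs at 22:00 was -1.06 ± 0.25 (2.08-fold lower in RU PeF, 0.0154), which was -0.73 without IM PeF 2 (0.092) and not called without RU PeF 3 either (0.0814). From RU PeF to RU UF it rose by 1.16 ± 0.25 (2.23-fold, 0.00113), and under IM by 0.66 ± 0.25 (0.0466), a call lost in 5 of 6 fits without 1 array.

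Psmb9 was called in controls (1.66 ± 0.62, 0.0397), and that value rests on control PeF 3: without it the difference was 0.49 (0.188), and without control PeF 2 it was 2.40. For comparison, 6 of 15 constitutive proteasome genes tested were higher and 1 lower in the control interval, with a median of 0.27. Of all probe sets 21.0% were higher and 18.5% lower there. Psmb3 rose by 0.97, the smallest adjusted p of that list. At 22:00, 5 of these 15 genes were higher in RU PeF than in control PeF (3.40% of all probe sets), among them Psma2 (0.44) and Pomp (0.39). None of the 5 immunoproteasome members was called there, while 3 had an unadjusted p under 0.05 (4328 of all 18155 probe sets). Psme1 stood at 0.49 (adjusted p = 0.0674) and Psmb10 at -0.75 (0.0714).

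Peptide transport genes rested on few arrays. Tap2 read 3.91, 5.47 and 2.07 in control PeF, 5.23, 5.79 and 5.56 in IM PeF and 5.13, 5.54 and 5.08 in RU PeF. It read 5.26, 6.11 and 5.81 in control PoF, 5.94, 5.85 and 5.80 in IM UF and 6.74, 6.08 and 6.83 in RU UF. Control PeF spanned more than 3 log2 units and overlapped control PoF. The control difference of 1.91 ± 0.54 (0.00895) was 1.05 without control PeF 3 (0.036), 2.73 without control PeF 2, and not called with arrays weighted by quality (0.55, 0.14).

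Tap1, the partner of Tap2 in the transporter, was called in no interval. It read 5.19, 5.19 and 2.07 in control PeF and 5.18, 5.20 and 5.41 in control PoF, so that control PeF 3 alone stood low. Its difference was 1.11 ± 0.61 in controls (0.155) and 1.48 ± 0.61 under RU (0.0622). Tapbp stood at 5.30 ± 1.39 (SD) in control PeF, 6.41 ± 0.11 in control PoF, 6.50 ± 0.25 in RU PeF and 7.65 ± 0.26 in RU UF. Its control rise of 1.11 (0.0462) was 0.31 and not called without control PeF 3. Under RU it rose by 1.15 ± 0.43 (0.0406), and this call was lost whichever array of the comparison was left out (adjusted p 0.0509 to 0.128). B2m, the invariant chain of class I, was called in no comparison by its brightest probe set, with group means from 11.25 ± 0.10 in IM PeF to 11.65 ± 0.26 in control PeF. A dimmer probe set of B2m was lower in RU PeF than in control PeF by 0.79 (adjusted p = 0.0268) and rose by 0.59 under IM (0.0355).

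**Figure D4:**
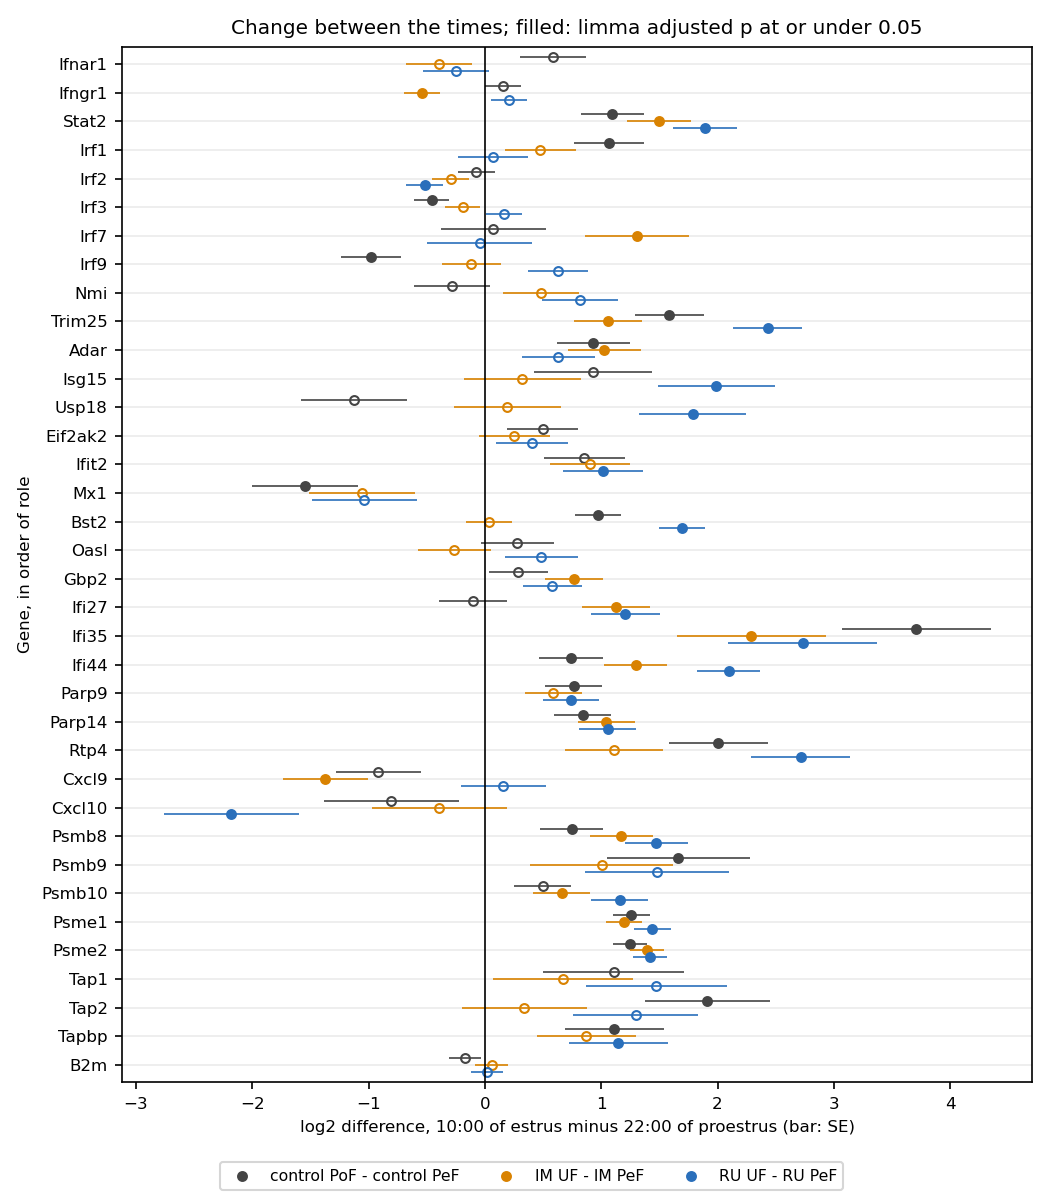
Log2 difference of each tested member between 10:00 of estrus and 22:00 of proestrus in controls (dark), under IM (orange) and under RU (blue), with bars of 1 SE; filled points passed the limma test at an adjusted p of 0.05. Psme1 and Psme2 have short bars and agree in size, Mx1 lies below 0 in all 3, and Usp18 and Irf9 lie below 0 in controls and above 0 under RU.

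**Figure D5:**
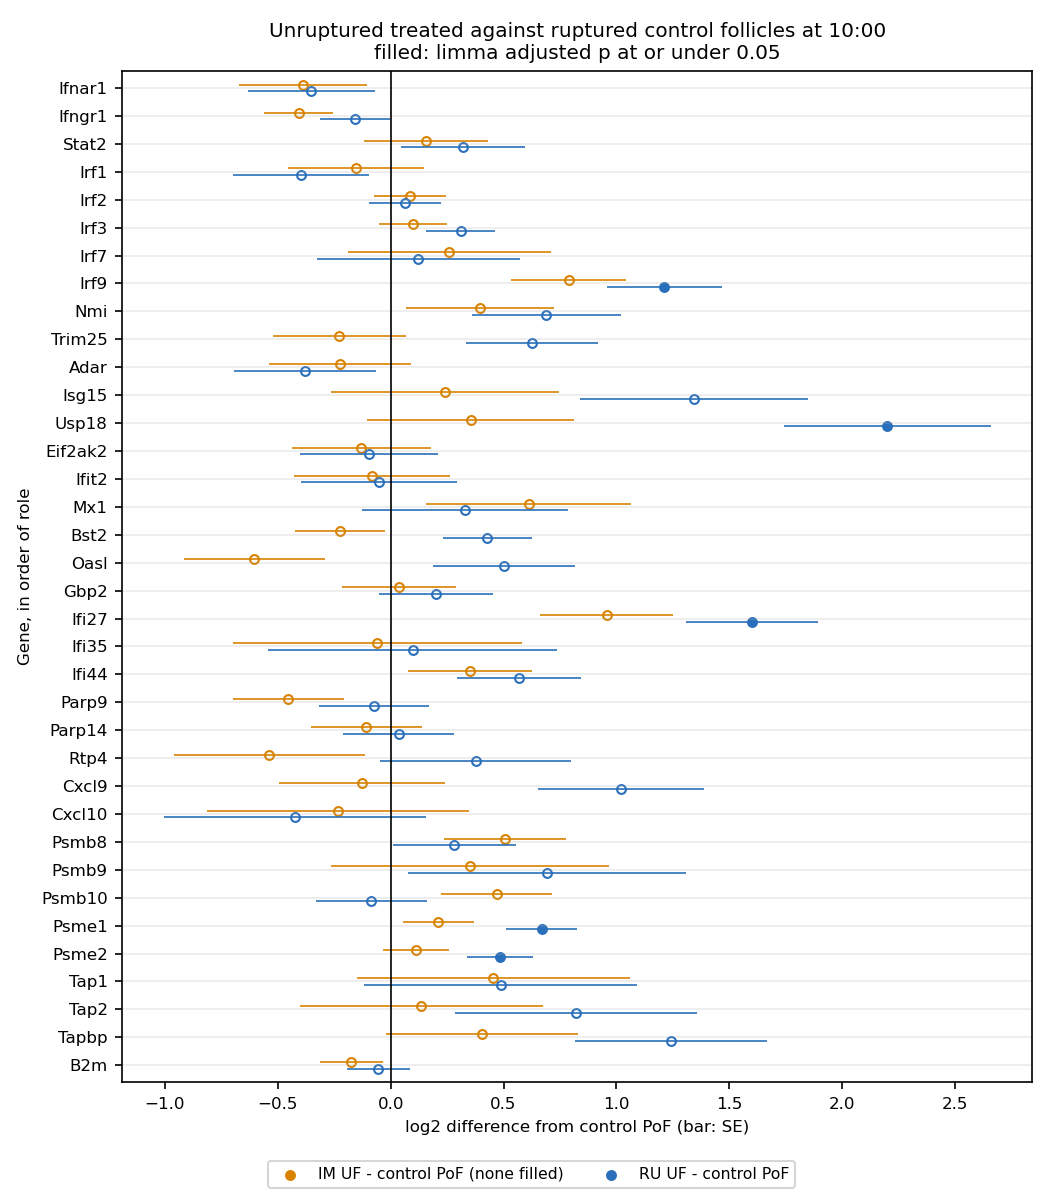
Log2 difference of each tested member from control PoF at 10:00 in IM UF (orange) and RU UF (blue), with bars of 1 SE; filled points passed the limma test at an adjusted p of 0.05. The 5 filled points, all RU UF, are Irf9, Usp18, Ifi27, Psme1 and Psme2, and no IM UF point is filled.

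Further genes of the pathway were counted from lists beside the members. Of 14 tested genes for interferon receptors and signalling, 2 were higher (14.3%) and 4 lower (28.6%) in the control interval, beside 21.0% and 18.5% of all probe sets. The lower ones included Ptpn2 (-1.20), Jak2 (-1.41) and Pias1 (-1.38), a phosphatase that limits the signal, a kinase that carries it and an inhibitor of STAT proteins. Under IM 1 was higher and 7 lower, and under RU 1 and 5. Of 25 tested other interferon-induced genes, 6 were higher and 3 lower in controls, 9 and 3 under IM and 10 and 2 under RU. In controls these shares, 24% and 12%, stand beside the 21.0% and 18.5% of all probe sets. Under IM they were 36% and 12% beside 16.3% and 17.0%, and under RU 40% and 8% beside 19.0% and 19.9%. Oas1a rose by 2.86 under RU and 2.02 under IM. Trim34 rose in controls (1.43), under IM (1.76) and under RU (1.87). Ifitm2, a membrane protein that hinders viral entry, rose in the same 3 intervals (1.24, 1.09 and 0.80). In controls Pml, the organizer of nuclear bodies, rose by 1.80, and Gbp7 was lower (-1.99).

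Some related genes were lower under RU than in controls. Ifitm3 and Ifitm1, of the same family as Ifitm2, were lower at 22:00 (-0.75 and -0.98) and at 10:00 (-1.05 and -0.88). Of 8 tested nucleic acid sensing genes, Sting1, the adaptor of cytosolic DNA sensing, rose in controls (1.63), under IM (1.27) and under RU (1.14). Tbk1, a kinase downstream of it, fell in controls (-1.04) and under IM (-1.41) and was lower in RU PeF than in control PeF (-1.11), with -0.25 over the RU interval (adjusted p = 0.196). Of 11 tested genes of class I loading, Canx (calnexin) rose in all 3 intervals (0.78 in controls, 0.98 under IM and 0.83 under RU), and Calr (calreticulin) fell in them (-0.65 in controls and -1.11 under RU).

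MHC class II genes, which present peptides to helper T cells, gave other counts. None of 8 tested was called in the control interval or under IM, where 21.0% and 16.3% of all probe sets were higher and 18.5% and 17.0% lower. In RU PeF 4 of 8 were lower than in control PeF (4.03% of all probe sets), among them Ctss (-1.58), RT1-Da (-1.12) and Cd74 (-1.10). In RU UF, RT1-Ba was lower than in control PoF (-1.98) and IM UF (-2.13). Of 7 tested macrophage and dendritic cell markers, C1qa (-1.69) and Mrc1 (-1.58) were lower and Cd14 (2.19) higher in RU PeF than in control PeF. The sums of that list overlapped, at 441 to 548 in RU PeF and 496 to 547 in control PeF. The summed leukocyte markers were 123 to 159 against 176 to 205, with 0 of 8 tested called. The part of these markers in the class II result was not tested.

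In the intervals described above, markers of other cell types moved as well. None of 8 tested leukocyte markers was called in any of the 11 comparisons, and Cd52 was above background in no group but IM UF. Of 7 tested macrophage and dendritic cell markers, 1 was higher in each interval and 1 lower under RU. Of 2 tested T and NK cell markers, 1 was lower in controls and 1 under IM, with 0 called under RU. In controls, smooth muscle and pericyte markers were higher at 10:00 for 3 of 6 and lower for 1, Des (-1.07), with sums of 401 to 440 at 22:00 and 560 to 693 at 10:00. In the same interval 2 of 4 theca markers were lower (4760 to 5860 and 2503 to 3521). Of 7 tested granulosa markers 3 were lower, among them Cyp19a1 (-4.54), and 2 higher, Nr5a2 (2.08) and Foxl2 (2.02). Smooth muscle markers were also higher for 5 of 6 under IM and 4 of 6 under RU, where Des was again lower (-1.04). Granulosa markers were higher for 3 and lower for 2 of 7 under IM, and higher for 3 and lower for 3 under RU. The B cell markers Cd79b and Ms4a1 were above background in no control group. Of all probe sets, 21.0% were higher and 18.5% lower in controls, 16.3% and 17.0% under IM and 19.0% and 19.9% under RU. The part of these cells in the members' rises was not tested.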

How the data were processed

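Total RNA of 18 laser-microdissected follicle samples was hybridised to 1-colour Affymetrix arrays. The authors deposited 1 linear signal intensity per probe set with a floor of 1, and the submitters' processing notes name MAS5, whose version and scaling no source used here states. From these intensities, 57 control probe sets were removed, arrays were quantile-normalized, and log2(signal + 2.79) was taken, 2.79 being the 20th percentile. Folds are on this scale and understate changes of low genes. The filter kept 18155 probe sets that exceeded the array median on 3 or more arrays.

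All 18 arrays were fitted in limma 3.58.1 (R 4.3.3) with a mean per group and a trended prior, and p-values were adjusted by Benjamini-Hochberg over all probe sets within each of 11 comparisons at 0.05. Residual degrees of freedom were 12. The number of arrays (3 per group) limits the precision. A member with several probe sets is given by the one with the highest mean. Members called in at least 1 comparison, up to 20 by smallest adjusted p, are given array by array, and of each further list up to 3 called genes of a comparison are named. Members, lists and rules were chosen with earlier results of these data known. Probe sets with several symbols (436) or none (9780) were left out of gene counts. Tested on simulated data for RU UF against control PoF (18155 probe sets), the fit recovered 38% of changes of log2 1 and 77% of log2 2.

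Alternatives were the deposited signals without normalization, median scaling, another pseudocount, no filter, only the groups compared, array quality weights, a replicate block, the mean of a gene's probe sets, no dim arrays, and leaving out each array. Promoters came from RefSeq (GRCr8), and plots from matplotlib 3.10.9 (Python 3.11.15).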

Additional observations from a re-analysis of the deposited data

Results flagged for a closer look

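The effect of RU486 differed between the times for a pair of members, by the interaction test across all probe sets (limma, Benjamini-Hochberg adjusted p). For Usp18 the effect at 10:00 exceeded that at 22:00 by 2.91 on the log2 scale (adjusted p = 0.0168), with RU UF above control PoF on all 3 arrays. For Irf9 it did so by 1.61 (0.0176), again with all 3 RU UF arrays above control PoF, although its other probe set gave 0.29. Without control PoF 2 neither difference was called, and on that array Usp18 was below background. With median scaling the difference of Irf9 was not called either.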

How the results depend on the processing

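Of 64 called member results, 37 held when any single array was left out, 27 were lost at least once and 0 turned. All 64 kept their call with the other pseudocount, 52 with median scaling, 58 with the replicate block and 20 with the deposited signals, where 40 lost it and 4 turned: Irf3 (1.02) and Irf9 (0.42) in the control interval, Psme1 (-0.078) and Psme2 (-0.25) in RU UF against control PoF. There the median of all probe sets moved by up to 1.28 between controls.

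Counts of called members that moved by over 1.5 times were as follows. With the deposited signals they were 0 in RU UF against control PoF, 0 over the IM interval, 4 over the RU interval, and 0 in both comparisons of RU with IM and in the RU effect between times. With median scaling they were 3 in RU UF against control PoF, 0 and 1 in RU against IM at 22:00 and 10:00, and 1 in the RU effect between times. Without the filter RU UF against IM UF gave 1. With only the groups compared they were 10 over the control interval, 11 in RU UF against control PoF and 8 in RU UF against IM UF. With array weights they were 4 in IM PeF, 9 in RU PeF, 10 in RU UF, 24 over the IM interval, 10 and 7 in RU against IM, and 1 and 9 in the IM and RU effects between times. Of all 18155 probe sets the weighted fit called 2348 in IM PeF, 3486 in RU PeF, 3686 in RU UF and 10149 over the IM interval. It called 3861 and 2643 in RU against IM, and 548 and 2446 in the IM and RU effects between times. With the mean of probe sets RU PeF gave 1. Without the 3 dimmest arrays they were 3 in RU PeF, 9 in RU UF, 1 and 5 in RU against IM, and 6 in the RU effect between times. Over all probe sets, the deposited signals called 151, 609, 1038, 41, 32 and 82 in these comparisons, in the order given. Median scaling called 793, 530, 557 and 340, and the fit without the filter 980. With only the groups compared 5044, 3115 and 1888 were called, beside 7183, 1579 and 1261 in the main fit. The mean of probe sets called 836 genes in RU PeF. Without the dim arrays 2266, 3102, 993, 1815 and 1664 were called.

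Leaving out 1 array gave 11 (without control PoF 3) to 21 over the control interval, 0 to 1 in IM PeF, 0 to 4 in RU PeF, 0 to 0 in IM UF, 3 to 4 in RU UF, 9 (without IM PeF 1) to 16 over the IM interval and 16 to 20 over the RU interval. It gave 1 to 2 and 0 to 2 in RU against IM at 22:00 and 10:00, 0 to 0 in the IM effect between times and 0 to 3 in the RU effect, 0 being without control PoF 2. RU PeF gave 4 without control PeF 2. The replicate block gave 18 over the control interval, 14 over the IM interval, 18 over the RU interval, 4 in RU UF against control PoF and 1 in RU UF against IM UF. The numbers did not pair the samples: over 45 pairs of the same number, the correlation of deviations was -0.30 to 0.12. Signal over background limits Ifit3, Mx2, Irf8, Ifih1, Dhx58 and Rsad2, which were not tested. It also limits some tested members. Among them, Rtp4 and Isg15 were above background on 1 of 3 arrays of control PeF. Mx1 was above it on 2 of 3 in control PeF and in control PoF, and Usp18 on 2 of 3 in control PoF. The cause of these changes was not tested.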
